A study of Mus musculus with 8 samples.

Results

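Transcript levels of mouse CD8+ T cells kept with a PPARα agonist were set against those of cells kept with DMSO, the solvent control. The comparison was made up of the arrays labelled for these treatments, 4 of the 8 arrays in the series, paired by the prefix that their titles share. Of 21160 genes with a transcript cluster of their own, 12696 were expressed above the lower limit of testing. No gene passed limma's test at an adjusted p of 0.05 in this comparison. The 95% interval of the change lay within 1 log2 unit (2-fold) of 0 for 12116 of the tested genes, or 95.4%.

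PPARα is a nuclear receptor that binds fatty acids. It pairs with a retinoid X receptor (RXR) on DNA and, with a ligand bound, recruits co-activators to genes of fatty acid uptake, droplet storage, and mitochondrial and peroxisomal oxidation. It is best known from liver, heart and brown fat, where fasting engages it, and it is also known to restrain inflammatory transcription in immune cells. CD8+ T cells kill infected and malignant cells. On activation they produce granzymes, perforin and interferon gamma, and memory cells draw on fatty acid oxidation.

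The cells came from female mice. They were naive CD8+ T cells that were stimulated in culture, and all 4 groups share this stimulation, a culture of 48 h and collection at day 2. The groups were the PPARα agonist, the PPARβ agonist, the PPARγ agonist and DMSO, with 2 arrays each. The identity and dose of each agonist, the mouse strain and age, and how the cells were stimulated and purified are not given in the sources used here. Sample titles carry 2 prefixes, and each prefix occurs once per group. Arrays with the same prefix are called culture set 1 and culture set 2 here, and what a prefix stands for is not stated in the labels. Nothing says that arrays of a group came from separate mice, so p-values cover only the spread seen between these arrays, and that may be technical. Values are log2 RMA levels, a change is the level with the agonist minus the level with DMSO in the same set, and coordinates are those of mouse build mm10. The highest values on the arrays were 19.01 to 19.16, which is high for RMA, and whether 1 unit is exactly 2-fold could not be checked from the files.

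The arrays carried T cell transcripts at high levels. The 7 tested members of the CD8 T cell list averaged 15.62 to 15.83 on all 8 arrays. Besides Cd8a and Cd8b1 that list holds genes of T cells in general, such as Cd3e and Cd2, so its average does not measure purity. Markers of B cells, macrophages, dendritic cells, granulocytes and mast cells, and natural killer cells averaged 4.22 to 5.33 on every array, around the lower limit of testing at 4.89. The CD4 and regulatory T cell list, of which 6 of 8 members were tested, averaged 7.79 and 7.21 with the PPARα agonist and 7.92 and 7.26 with DMSO. The DMSO array of set 1 stood apart from the other DMSO array in interferon response genes, and results on those genes are given for each set. In bulk RNA, fewer cells of a type and less RNA per cell cannot be told apart.

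The receptor gene itself was barely above the lower limit. Ppara (chromosome 15, 85734983 to 85806851) stood at 5.16 in set 1 and 5.17 in set 2 with the PPARα agonist, against 5.16 and 5.04 with DMSO, a mean change of 0.07 (SE 0.17, 95% interval -0.34 to 0.48). The PPARα arrays thus lay at the level of the controls. Pparg, the receptor of the fat cell programme, lay below the lower limit on all 4 arrays, at 3.77 and 3.67 with the agonist and 3.64 and 3.80 with DMSO. The transcript cluster that Ppard, the gene of PPARβ, shares with 1810013A23Rik stood higher, at 9.91 and 9.89 with the agonist and 9.32 and 9.91 with DMSO, and its probes cannot be assigned to either gene.

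Of the 19 PPAR and RXR receptors and co-regulators on the list 15 were tested. Besides Pparg and Ppard, those left out were the dimer partner Rxrg and the co-activator Ppargc1a, which lay below the lower limit. Rxra, the main dimer partner, stood at 8.94 and 8.48 with the agonist and at 9.28 and 8.02 with DMSO. Its change was -0.33 in set 1 and 0.46 in set 2, so the sets pointed in opposite directions. Ppargc1b, a co-activator of mitochondrial genes, stood at 8.80 and 8.06 with the agonist and at 9.11 and 8.44 with DMSO, with changes of -0.30 and -0.38 (mean change -0.34, SE 0.16). It was the only one of the 15 tested receptors and co-regulators with a change of at least 0.3 in 1 direction in both sets. Of these 15 genes, 4 had a mean change above 0 and 11 below 0, where 54.2% of all tested genes lay below 0, with a median of -0.08. In both sets 8 of the 15 were below 0, where the share was 30.2%.

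Over all 12696 tested genes, limma's test with the culture set as a block called 0 genes (0.0%), and the smallest adjusted p was 0.985. An unadjusted p under 0.05 was found for 617 genes, or 4.86% of those tested, 307 of them higher and 310 lower with the PPARα agonist. Without the block 0 genes were called, and 225 had an unadjusted p under 0.05. With each array centred on its median, a setting chosen after seeing the data, the 631 genes at an unadjusted p under 0.05 were 406 higher and 225 lower. The median SE of a change was 0.164.

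The 2 culture sets share no array, so the changes seen in them are separate measurements. Across the 12696 genes these changes correlated at a Pearson r of 0.056 and a Spearman rho of 0.076, which describes genes that are not independent replicates. A change of at least 0.3 was seen in both sets for 309 genes that were higher (2.43%) and 299 that were lower (2.36%), against 493 genes that differed by at least 0.3 in opposite directions. At 0.5 the counts were 64 higher, 48 lower and 84 opposite. At 1 log2 unit 2 genes were higher in both sets, 0 were lower and 3 were opposite. Among tested genes with mean levels up to 5.89, the lowest 20% by level, the Pearson correlation was -0.01, and 149 of the 309 higher genes lay there. It was 0.15 for mean levels between 10.11 and 12.07, where it was largest of 5 such ranges. Spearman's rho was largest, at 0.19, for mean levels from 12.07 up.

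**Figure D1:**
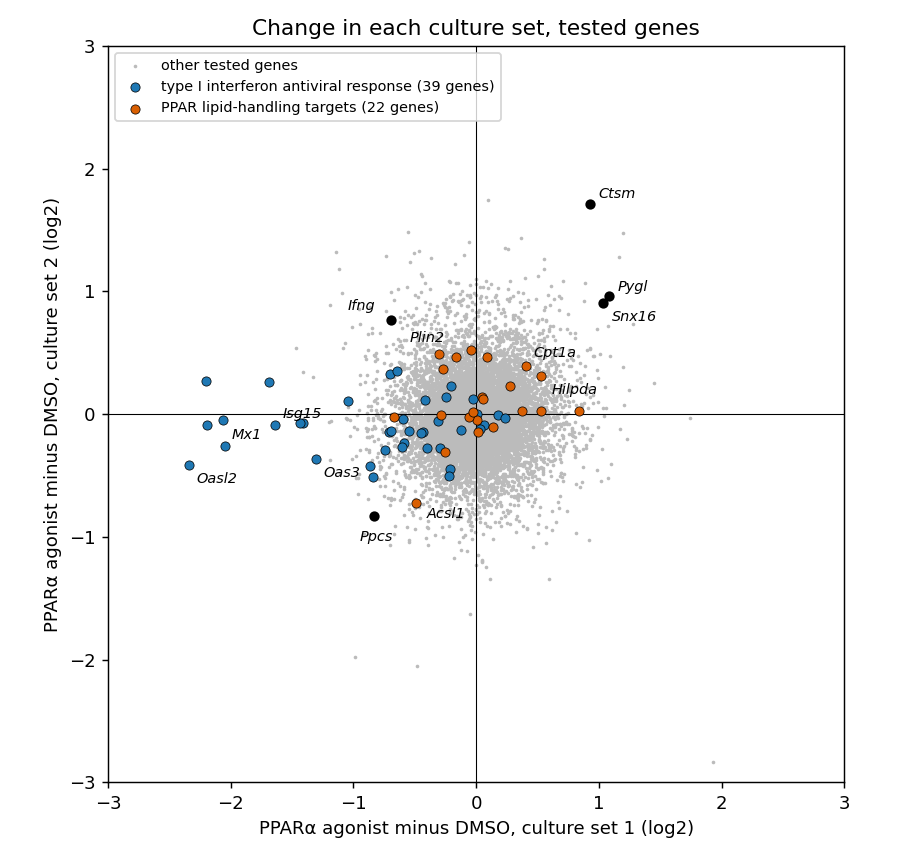
Change with the PPARα agonist against DMSO (log2) in culture set 1 (horizontal axis) and culture set 2 (vertical axis) for each tested gene, with 22 PPAR lipid-handling targets in orange, 39 type I interferon response genes in blue and other named genes in black. The cloud is round (r = 0.056), and the interferon genes spread to the left, far below 0 in set 1 and close to 0 in set 2.

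PPAR lipid-handling targets are the genes on which a PPARα agonist is usually read. Of the 35 on the list, 22 were tested, 12 lay below the lower limit and 1 shared a cluster. Pdk4, the kinase that shuts off pyruvate oxidation and is a standard PPARα readout, was among those below the limit, at 3.50 and 3.41 with the PPARα agonist and 3.55 and 3.60 with DMSO. Of the 22 tested targets 14 had a mean change above 0, where 45.8% of all tested genes did, and 8 a mean change below 0. The median change was 0.09, against -0.02 over all tested genes, but within the sets it was 0.01 and 0.03. For 21 of the 22 the 95% interval of the change lay within 1 log2 unit of 0, and 0 passed limma's threshold.

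Cpt1a (chromosome 19, 3323301 to 3385733), the rate-limiting transferase of fatty acid entry into mitochondria, stood at 10.52 and 11.86 with the PPARα agonist, against 10.11 and 11.46 with DMSO. It was higher by 0.41 in set 1 and 0.39 in set 2, and the groups overlapped because set 2 stood higher under both treatments (mean change 0.40, SE 0.24, limma unadjusted p = 0.145). Hilpda (chromosome 6, 29272488 to 29275449), a lipid droplet protein that slows the breakdown of stored fat, stood at 9.58 and 10.04 with the agonist, against 9.05 and 9.73 with DMSO. Its changes were 0.53 and 0.31, with a mean of 0.42 (SE 0.14, limma unadjusted p = 0.0192).

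Acsl1, which activates long-chain fatty acids by joining them to coenzyme A, was lower. It stood at 6.47 and 5.63 with the PPARα agonist, against 6.96 and 6.35 with DMSO, with changes of -0.49 and -0.73 (SE 0.14, limma unadjusted p = 0.00323). These 3 genes were the only tested targets that differed by at least 0.3 in 1 direction in both sets. Over all tested genes 2.43% were that much higher and 2.36% that much lower.

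Other standard targets differed between the sets. Plin2, the coat protein of lipid droplets, stood at 5.80 and 7.79 with the PPARα agonist, against 5.96 and 7.32 with DMSO, with changes of -0.16 and 0.47 (95% interval of the mean change -0.44 to 0.75). Angptl4, a secreted inhibitor of lipoprotein lipase, stood at 7.91 and 7.80 with the agonist, against 7.83 and 7.34 with DMSO, with changes of 0.09 and 0.47. Both had overlapping groups.

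**Figure D2:**
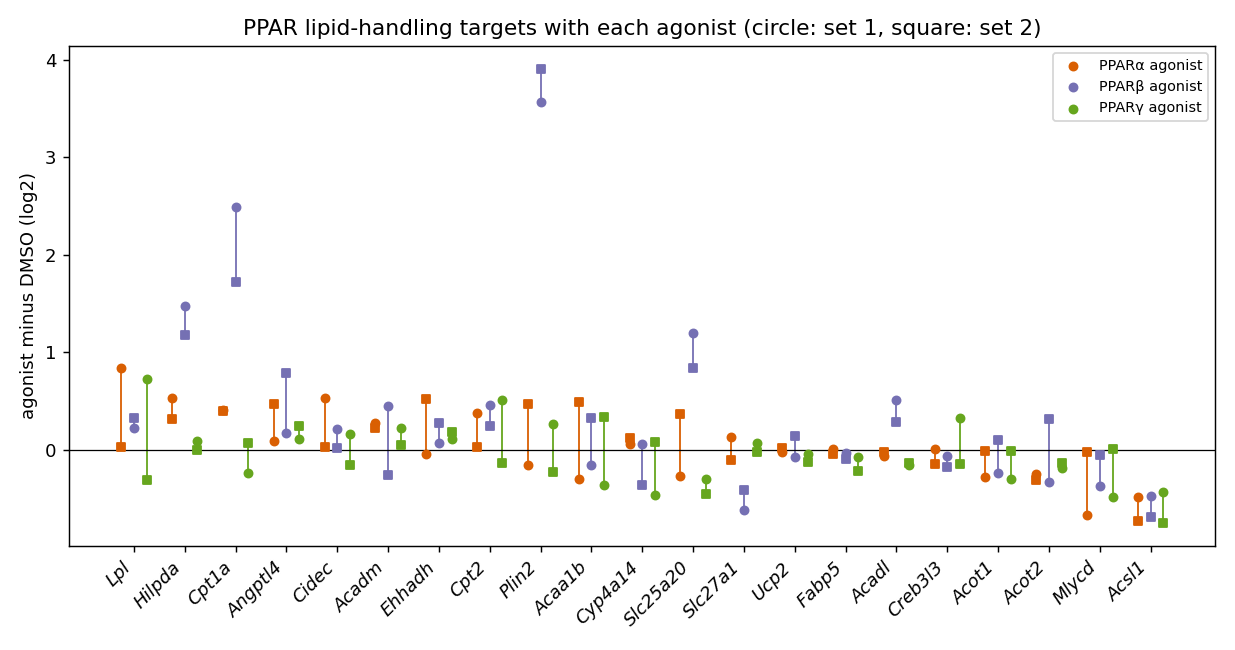
Change against DMSO (log2) of 21 of the 22 tested PPAR lipid-handling targets (1 is not shown) with the PPARα agonist (orange), the PPARβ agonist (purple) and the PPARγ agonist (green), with a circle for culture set 1 and a square for set 2, in order of the mean change with the PPARα agonist. All 3 agonists are set against the same DMSO arrays; with the PPARα agonist none of the 21 exceeds 0.83 in either set, and with the PPARβ agonist Plin2 reaches 3.91.

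Fatty acid oxidation proper showed small differences. Of 18 tested mitochondrial genes 14 had a mean change above 0 and 4 below 0, where 45.8% of all tested genes lay above 0. Above 0 in both sets were 7, against 2954 of the 12696 tested genes. The median was 0.05 (0.11 in set 1 and 0.04 in set 2), and for all 18 the 95% interval lay within 1 log2 unit of 0. Hadhb (chromosome 5, 30155248 to 30184593), the thiolase subunit of the trifunctional protein, stood at 13.14 and 13.39 with the PPARα agonist, against 12.79 and 13.09 with DMSO, so the groups did not overlap (mean change 0.32, SE 0.13, limma unadjusted p = 0.0414). With Cpt1a it was 1 of the 2 members past 0.3 in both sets, both higher, where 2.43% of all tested genes were that much higher. Hadha, its partner subunit, was named after its values were seen, and it stood at 14.29 and 14.67 with the agonist, against 14.48 and 14.69 with DMSO.

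Of 19 tested peroxisomal genes 12 had a mean change above 0 and 7 below 0, where 45.8% of all tested genes lay above 0. Above 0 in both sets were 2, against 2954 of the 12696 tested genes. The medians were 0.08 in set 1 and -0.09 in set 2. Pex5, the receptor that imports enzymes into the peroxisome, stood at 6.85 and 6.91 with the PPARα agonist, against 6.17 and 6.56 with DMSO (mean change 0.52, SE 0.18). It was the only member past 0.3 in both sets.

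The genes that were higher most steadily were not on the lipid lists. Among nameable tested genes, the 10 ranked highest by the smaller of their 2 set changes had smaller changes of 0.66 to 0.96. Pygl (chromosome 12, 70190811 to 70231488), the liver-type phosphorylase that releases glucose from glycogen, led them at 7.82 and 9.40 with the PPARα agonist, against 6.74 and 8.43 with DMSO. Its changes were 1.08 and 0.96, a mean of 1.02 (SE 0.24, limma unadjusted p = 0.00386), and the groups overlapped through the difference between the sets. Of the 16 tested genes of glycogen metabolism, Pygl was the only one past 0.3 in both sets. A mean change above 0 was found for 10, where 45.8% of all tested genes had one.

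Mtln (chromosome 2, 127791377 to 127792488), which encodes the mitochondrial micropeptide mitoregulin that binds fatty acid oxidation enzymes, stood at 8.19 and 8.23 with the PPARα agonist, against 7.31 and 7.16 with DMSO. Both agonist arrays lay above both controls (mean change 0.98, SE 0.23, limma unadjusted p = 0.0035). Snx16 (chromosome 3, 10417817 to 10440130), a sorting nexin of endosomes, stood at 9.82 and 9.60 with the agonist, against 8.78 and 8.70 with DMSO. It had the smallest unadjusted p among nameable genes, those other than predicted genes and receptor families (mean change 0.97, SE 0.15, limma unadjusted p = 0.000317, limma adjusted p = 0.985), and both arrays again lay above the controls.

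Ctsm, a cathepsin known from the rodent placenta, stood at 6.58 and 7.06 with the PPARα agonist, against 5.66 and 5.35 with DMSO. Its mean change of 1.32 (SE 0.21) was the largest of the 10. Synpr, a synaptic vesicle protein, stood at 6.05 and 5.84 with the agonist, against 5.17 and 4.92 with DMSO, a mean change of 0.90 (SE 0.17). Lbp, which binds bacterial lipopolysaccharide, Cplx2, a regulator of vesicle fusion, and Ribc1 and Sh3rf2 were also among the 10, with mean changes of 0.89, 0.82, 0.71 and 0.73. Of the 10 genes, 5 had mean levels below 6, in the range where the culture sets did not correlate, and 9 had groups that did not overlap (11.0% of all tested genes had both agonist arrays above both controls). The ranking used the same arrays and favours such genes, so nothing is read from that count. Tceal5 and Mkrn3, which were among the 5 higher nameable genes with the smallest unadjusted p, lay in the same low range at 5.66 and 6.53, and at 5.29 and 5.44, with the agonist, and at 5.05 and 5.49, and at 4.36 and 4.91, with DMSO.

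Among genes at or above the median level of 9.10, the leaders after Snx16 were Hamp2, Tmem43, Stac3 and Tnfsf8. Tmem43, a membrane protein of the nuclear envelope, stood at 11.99 and 12.76 with the PPARα agonist, against 11.32 and 12.28 with DMSO (mean change 0.58, SE 0.16). Tnfsf8, the CD30 ligand of activated T cells, stood at 10.77 and 9.90 with the agonist, against 10.32 and 9.36 with DMSO (mean change 0.50, SE 0.23). Stac3, an adaptor known from muscle, differed by 0.50 (SE 0.17). Hamp2, a hepcidin gene, differed by 0.63 (SE 0.17), and since it has a near-identical copy, Hamp, its probes may read both genes.

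**Figure D3:**
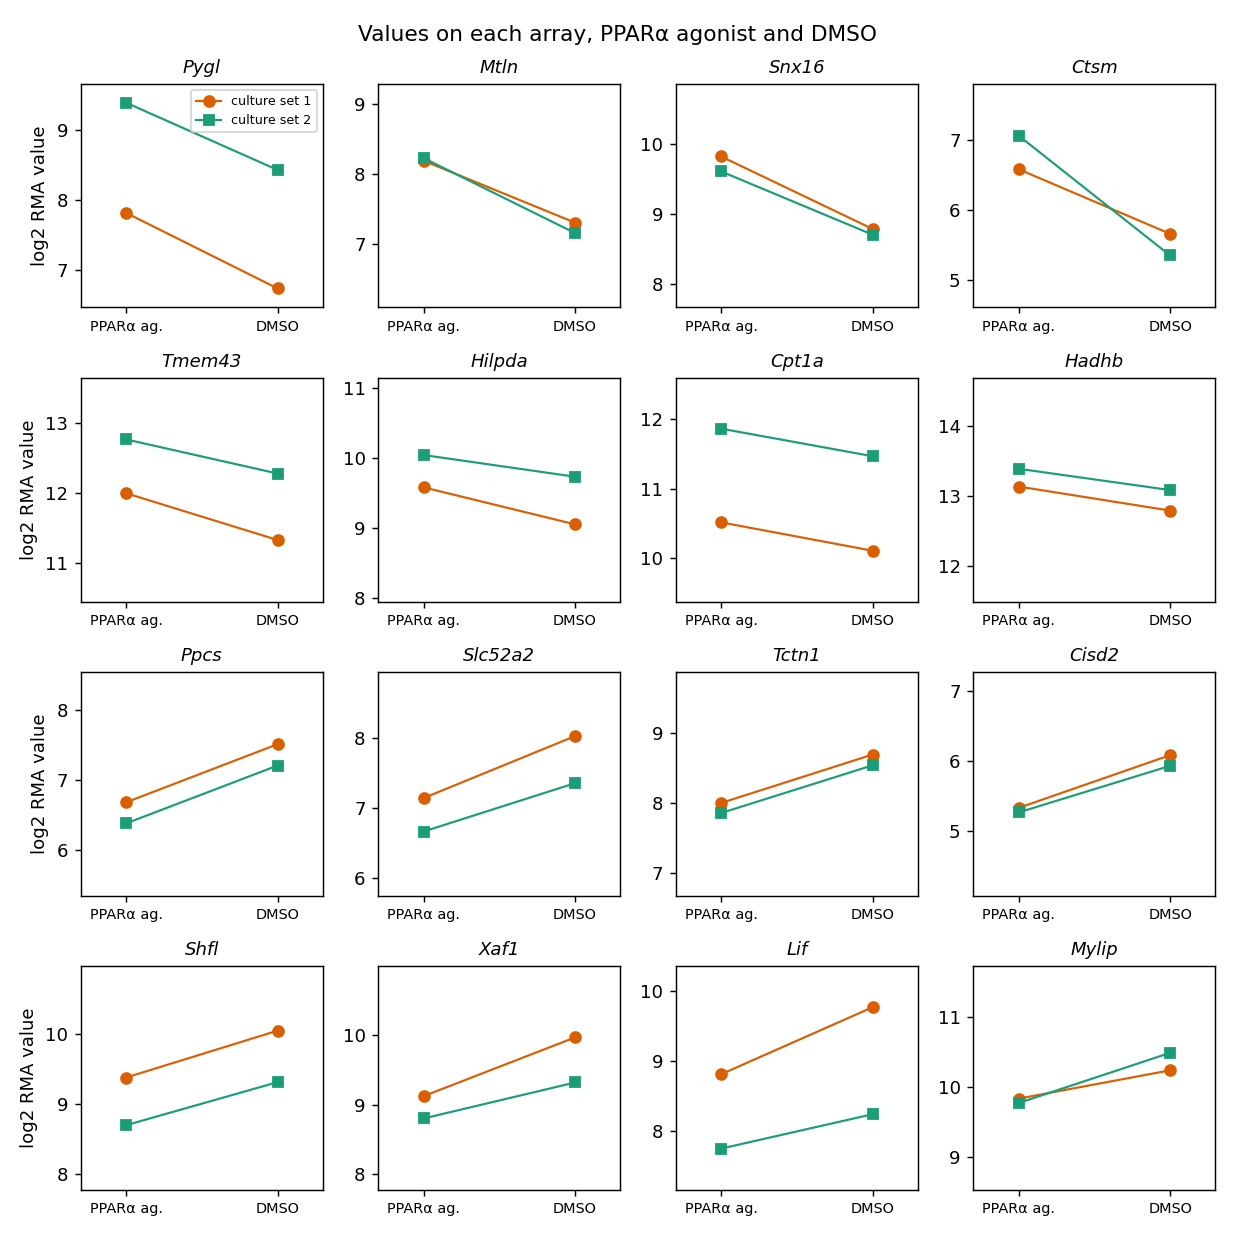
Log2 RMA value of 16 named genes with the PPARα agonist (left) and DMSO (right), where a line joins the arrays of culture set 1 (orange circles) or set 2 (green squares) and every panel has the same span. Within each set the upper 8 genes are higher and the lower 8 genes lower with the agonist. Pygl, Cpt1a and Lif differ most between the sets under both treatments, and others, such as Tmem43, Shfl, Slc52a2 and Hilpda, differ less.

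Among the 10 genes that were lower most steadily, the smaller of the set changes lay between -0.83 and -0.66, and the groups of all 10 did not overlap (13.0% of all tested genes had both agonist arrays below both controls), from which again nothing is read. Ppcs (chromosome 4, 119418530 to 119422420), the enzyme of the second step of coenzyme A synthesis, stood at 6.69 and 6.38 with the PPARα agonist, against 7.52 and 7.21 with DMSO. Its change was -0.83 in each set (SE 0.13, limma unadjusted p = 0.000388, adjusted p = 0.985). Slc52a2 (chromosome 15, 76538883 to 76542130), a transporter of riboflavin, stood at 7.14 and 6.66 with the agonist, against 8.02 and 7.35 with DMSO (mean change -0.79, SE 0.16).

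Tctn1, a protein of the ciliary transition zone, stood at 8.003 and 7.86 with the PPARα agonist, against 8.69 and 8.54 with DMSO (mean change -0.69, SE 0.15). Cisd2, an iron-sulphur protein of the endoplasmic reticulum and mitochondria, stood at 5.33 and 5.27 with the agonist, against 6.08 and 5.93 with DMSO (mean change -0.71, SE 0.16). The remaining members were Rpusd2, a pseudouridine synthase, Iqcb1, another ciliary protein, Pcsk1, a prohormone convertase, and Svs2, Epha10 and Slc22a13b, with mean changes of -0.72, -0.70, -0.82, -0.70, -0.68 and -0.81. Of the 10 genes, 5 had mean levels below 6. Id1, an inhibitor of helix-loop-helix transcription factors with a small unadjusted p, stood at 5.70 and 5.38 with the agonist, against 6.25 and 6.41 with DMSO.

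At or above the median level the leading genes in this direction were Shfl, Xaf1, Nfkbid, Furin and Med28. Shfl (chromosome 9, 20868642 to 20874307), an interferon-induced antiviral inhibitor of ribosomal frameshifting, stood at 9.38 and 8.70 with the PPARα agonist, against 10.05 and 9.32 with DMSO. Its changes were -0.67 and -0.62 (SE 0.13, limma unadjusted p = 0.0015). Furin, a protease that matures proproteins and is induced in activated T cells, stood at 11.00 and 10.24 with the agonist, against 11.78 and 10.69 with DMSO (mean change -0.62, SE 0.18).

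Nfkbid, an inhibitor-like regulator of NF-κB in activated T cells, stood at 13.49 and 11.03 with the PPARα agonist, against 13.95 and 11.53 with DMSO (mean change -0.48, SE 0.14). Med28, a subunit of the Mediator complex, stood at 10.21 and 9.93 with the agonist, against 10.64 and 10.57 with DMSO (mean change -0.54, SE 0.16). The set changes of Shfl, Furin, Nfkbid and Med28 lay between -0.78 and -0.44, and of the 5 leaders at this level the groups of Xaf1 and Med28 did not overlap.

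Type I interferon response genes showed the lowest median of the 26 pathway lists, -0.34, against -0.02 over all tested genes. These genes are induced through the interferon receptor and act against viruses. Of the 42 on the list 39 were tested and 3 lay below the lower limit. A mean change below 0 was found for 34 of 39, where 54.2% of all tested genes had one, and a change below 0 in both sets for 25, where the share was 30.2%. Both agonist arrays lay below both controls for 15, where 13.0% of all tested genes had this. At least 0.3 lower in both sets were 4 members, where the share over all tested genes was 2.36%. By limma's test 0 members passed the threshold, and 5, all lower, had an unadjusted p under 0.05, against 310 lower genes among the 12696 tested. The 95% interval of the change lay within 1 log2 unit of 0 for 25 of the 39 (64.1%), against 95.4% of all tested genes.

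This difference was larger in culture set 1 than in set 2. In set 1 the median change was -0.60, against -0.09 in set 2. The members ranged from -2.34 to 0.23 in set 1 and from -0.51 to 0.35 in set 2. In set 2 alone 30 of 39 members lay below 0, against 55.9% of all tested genes. The mean level of the list was 9.31 and 9.37 with the PPARα agonist, against 10.07 and 9.47 with DMSO. Among these 4 arrays the DMSO array of set 1 had the highest list mean. It held the highest of the 4 values for 25 of the 39 genes (64.1%), against 26.5% of all tested genes. The arrays of the PPARβ agonist, at 10.19 and 9.58, were also higher in set 1, where the PPARβ array stood above the DMSO array. Those of the PPARγ agonist, at 9.15 and 9.48, were not higher in set 1. Whether the treatment or the single DMSO array of set 1 accounts for the difference was not tested.

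**Figure D4:**
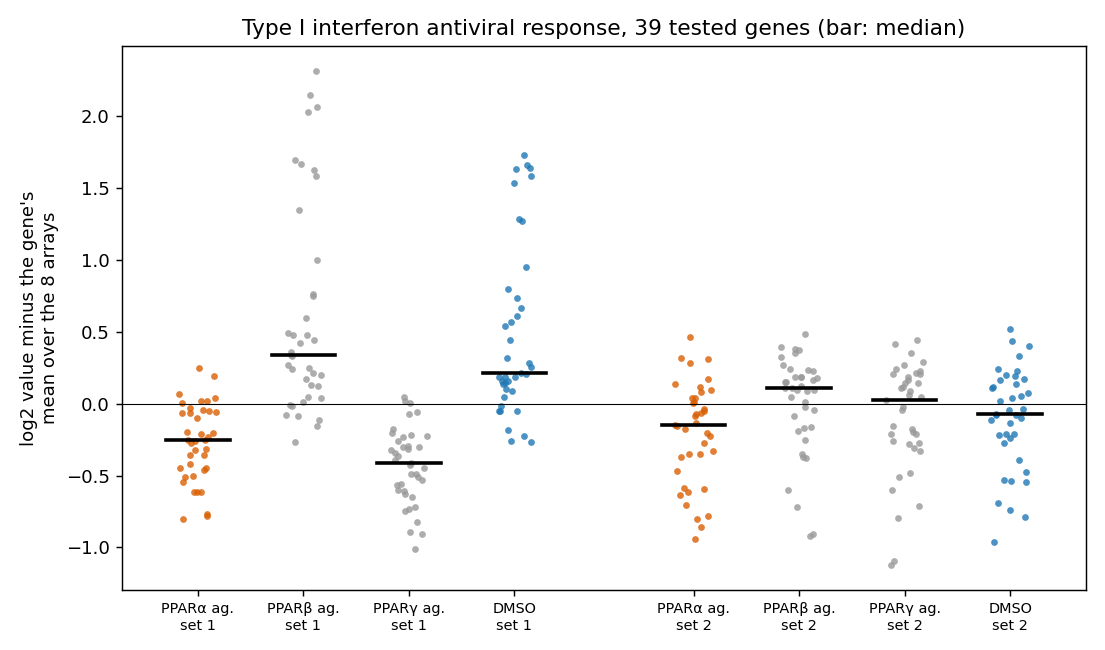
Log2 value of each of the 39 tested type I interferon response genes minus the gene's mean over the 8 arrays, by array, with culture set 1 on the left and set 2 on the right, the PPARα agonist in orange, the PPARβ and PPARγ agonists in grey and DMSO in blue; bars mark medians. In set 1 the DMSO and PPARβ arrays hold several genes more than 1 log2 unit above their mean, and in set 2 the PPARα and DMSO arrays largely overlap.

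The 4 members past 0.3 in both sets were Oasl2, Oas3, Ifit1 and Xaf1. Oas3 (chromosome 5, 120753098 to 120777661), a sensor of double-stranded RNA that activates RNase L, stood at 6.53 and 7.07 with the PPARα agonist, against 7.84 and 7.44 with DMSO. Its changes were -1.31 and -0.36 (mean -0.84, SE 0.23, limma unadjusted p = 0.00826). Xaf1, an interferon-induced protein that favours cell death, stood at 9.12 and 8.80 with the agonist, against 9.96 and 9.31 with DMSO, with changes of -0.84 and -0.51 (SE 0.21).

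Oasl2, a member of the same antiviral family as Oas3, stood at 5.68 and 5.55 with the PPARα agonist, against 8.02 and 5.96 with DMSO. Its mean change was -1.37 (SE 0.68, 95% interval -2.97 to 0.22). Ifit1, which binds foreign RNA ends, stood at 6.08 and 5.70 with the agonist, against 6.94 and 6.12 with DMSO (mean change -0.64, SE 0.54, 95% interval -1.92 to 0.63). Isg15, a ubiquitin-like modifier, stood at 6.36 and 6.03 with the agonist, against 7.998 and 6.12 with DMSO, so that set 1 differed by -1.64 and set 2 by -0.09. Its mean change was -0.86 (SE 0.39, 95% interval -1.79 to 0.06), so the intervals of all 3 genes spanned 0. In all 3 the DMSO array of set 1 was the highest of the 4.

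The promoters of 4 of these genes and of the interferon-induced chemokine gene Cxcl10 are shown to place the motif by which such genes are known. The motif is the core of the interferon-stimulated response element, here GAAA, any 2 bases and GAAA, searched on both strands with overlaps allowed, and capitals mark each match. The sequences are RefSeq promoters of build GRCm38.p6, from 250 bases before to 50 after the gene's start, on the strand of the gene. Oas3 lies on the minus strand at chr5:120777610-120777909, Ifit1 on the plus strand at chr19:34640639-34640938, Isg15 on the minus strand at chr4:156200769-156201068, Cxcl10 on the minus strand at chr5:92348840-92349139 and Oasl2 on the plus strand at chr5:114896684-114896983.
Oas3: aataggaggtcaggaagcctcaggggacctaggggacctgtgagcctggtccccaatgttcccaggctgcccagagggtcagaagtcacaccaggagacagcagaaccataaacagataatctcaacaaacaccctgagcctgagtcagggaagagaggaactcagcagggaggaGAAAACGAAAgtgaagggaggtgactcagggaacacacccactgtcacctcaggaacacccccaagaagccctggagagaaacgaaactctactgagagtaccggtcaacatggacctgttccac
Ifit1: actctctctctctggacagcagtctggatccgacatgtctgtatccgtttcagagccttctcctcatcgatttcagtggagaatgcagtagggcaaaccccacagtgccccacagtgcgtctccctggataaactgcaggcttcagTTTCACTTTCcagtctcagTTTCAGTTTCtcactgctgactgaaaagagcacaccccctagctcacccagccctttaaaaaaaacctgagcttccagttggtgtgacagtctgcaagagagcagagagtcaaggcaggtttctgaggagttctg
Isg15: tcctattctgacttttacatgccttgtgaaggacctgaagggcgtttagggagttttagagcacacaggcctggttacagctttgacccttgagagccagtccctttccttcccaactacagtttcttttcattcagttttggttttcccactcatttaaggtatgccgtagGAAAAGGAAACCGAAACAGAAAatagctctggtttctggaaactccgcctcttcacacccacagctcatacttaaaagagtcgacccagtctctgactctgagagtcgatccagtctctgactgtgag
Cxcl10: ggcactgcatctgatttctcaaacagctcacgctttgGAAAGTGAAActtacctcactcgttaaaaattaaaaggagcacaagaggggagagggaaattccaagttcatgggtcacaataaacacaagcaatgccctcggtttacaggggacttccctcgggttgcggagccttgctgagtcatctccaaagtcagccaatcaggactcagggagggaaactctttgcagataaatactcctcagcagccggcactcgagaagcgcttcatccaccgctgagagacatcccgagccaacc
Oasl2: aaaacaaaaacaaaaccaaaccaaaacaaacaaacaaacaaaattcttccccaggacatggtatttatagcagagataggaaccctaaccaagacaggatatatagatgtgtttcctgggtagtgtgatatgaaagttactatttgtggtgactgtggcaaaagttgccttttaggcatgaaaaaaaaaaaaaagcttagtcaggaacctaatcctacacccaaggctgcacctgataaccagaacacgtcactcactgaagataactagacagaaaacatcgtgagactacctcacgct

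Oas3 and Cxcl10 held 1 match each, Ifit1 held 2 on the opposite strand and Isg15 held 3 that overlap, while Oasl2 and Xaf1 held none in this window. Among 9919 tested genes with a promoter in the table, 3.82% held the core. Of the 39 tested interferon genes 29 had a promoter in the table and 15 of those held it. These 29 are fewer than 80% of the list, as are the 9919 of the 12696 tested genes, so the comparison of shares is void and nothing is read from it. The direct repeat bound by PPAR with RXR, AGGTCA and AGGTCA with any 1 base between, was found in 4 of the 9919 promoters and in none of those printed.

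Of 16 tested cytokine and chemokine genes 13 were lower with the agonist in set 1 and 9 in set 2, against 51.1% and 55.9% of all tested genes. A mean change below 0 was found for 12, where 54.2% of all tested genes had one, with medians of -0.49 in set 1 and -0.04 in set 2. Among the 4 PPARα and DMSO arrays, the DMSO array of set 1 was highest for 11 of the 16, against 26.5% of all tested genes. The members ranged between -0.96 and 0.49 in set 1 and between -0.57 and 0.76 in set 2, and 14 of the 30 on the list lay below the lower limit. Lif (chromosome 11, 4257557 to 4272514), a cytokine of the interleukin 6 family, stood at 8.82 and 7.75 with the PPARα agonist, against 9.77 and 8.24 with DMSO (mean change -0.72, SE 0.15, limma unadjusted p = 0.00195). Osm, its neighbour and relative, stood at 8.48 and 8.56 with the agonist, against 8.97 and 8.95 with DMSO, without overlap (mean change -0.44, SE 0.15).

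Cxcl10, which attracts effector T cells, stood at 5.34 and 4.67 with the PPARα agonist, against 6.13 and 5.07 with DMSO (mean change -0.59, SE 0.17). With Lif and Osm it made up the 3 cytokine genes past 0.3 in both sets, all of them lower, where 2.36% of all tested genes were that much lower, and 0 of the 16 passed limma's threshold. Ifng, the hallmark cytokine of the lineage, stood at 10.85 and 8.18 with the agonist, against 11.54 and 7.42 with DMSO, lower in set 1 and higher in set 2. Tnf stood at 11.42 and 10.47 with the agonist, against 11.998 and 10.39 with DMSO, with changes of -0.58 and 0.08. Il2 lay below the lower limit on average, at 4.80 and 4.48 with the agonist and 4.97 and 4.53 with DMSO.

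The 14 tested genes of the killing machinery went both ways, with changes between -0.58 and 0.60 in set 1 and between -0.32 and 0.13 in set 2. Gzmb, the protease granzyme B, stood at 14.74 and 14.32 with the PPARα agonist, against 15.08 and 14.24 with DMSO, with changes of -0.34 and 0.08. Prf1, the pore-forming perforin, stood at 7.66 and 7.29 with the agonist, against 7.06 and 7.17 with DMSO, with changes of 0.60 and 0.13. Stx11, a syntaxin needed for granule release, stood at 7.83 and 7.68 with the agonist, against 8.14 and 7.999 with DMSO (mean change -0.31, SE 0.13). It was the only one of 14 tested cytotoxic genes past 0.3 in both sets. Of the 14, 6 had a mean change above 0 and 8 below 0, where 54.2% of all tested genes lay below 0. Cd8a stood at 16.48 and 16.65 with the agonist, against 16.69 and 16.71 with DMSO, and Il2ra, the high-affinity interleukin 2 receptor chain, at 12.81 and 11.90 with the agonist, against 12.69 and 12.10 with DMSO.

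Early response and NF-κB target genes had a mean change below 0 in 23 of 27 members, where 54.2% of all tested genes had one. Below 0 were 21 in set 1 and 18 in set 2, against 51.1% and 55.9% of all tested genes. In both sets 14 of the 27 were below 0, where the share was 30.2%. Among the 4 PPARα and DMSO arrays, the DMSO array of set 1 was highest for 20 of the 27, against 26.5% of all tested genes. The median change of the 27 was -0.11, and 0 of the 27 passed limma's threshold. The only member past 0.3 in both sets was higher. It was Ier3, a stress-induced survival factor, at 7.66 and 8.09 with the PPARα agonist, against 7.28 and 7.55 with DMSO. Of the survival genes, Bcl2, which blocks mitochondrial death, stood at 15.07 and 15.27 with the agonist, against 15.44 and 15.60 with DMSO, without overlap (mean change -0.35, SE 0.14). Its relative Bcl2l2 stood at 6.77 and 7.34 with the agonist, against 6.41 and 6.88 with DMSO (mean change 0.41, SE 0.14).

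The list of liver X receptors and sterol export genes had 10 of 11 tested members with a mean change below 0, where 54.2% of all tested genes had one. In both sets 5 of the 11 were below 0, where the share was 30.2%. The median was -0.14, and -0.12 and -0.13 within the sets. Mylip (chromosome 13, 45389742 to 45412019), a ligase that marks the LDL receptor for breakdown, stood at 9.84 and 9.77 with the PPARα agonist, against 10.24 and 10.49 with DMSO, without overlap (mean change -0.56, SE 0.14, limma unadjusted p = 0.00501). Pltp, a phospholipid transfer protein, stood at 4.31 and 5.99 with the agonist, against 4.92 and 6.35 with DMSO, around the lower limit. Of the 26 pathway lists 14, among them activation and costimulation, inhibitory receptors, mitosis, MYC and ribosome biogenesis, glycolysis, oxidative phosphorylation and cholesterol synthesis, held no member past 0.3 in both sets. Apart from the interferon list, medians lay between -0.20 and 0.09. A lean below 0 in both sets was also seen in lists not described above. It was found for 15 of 23 tested genes of the ATF4 stress response. For T cell receptor signalling it was 14 of 23, where the share over all tested genes was 30.2%.

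**Figure D5:**
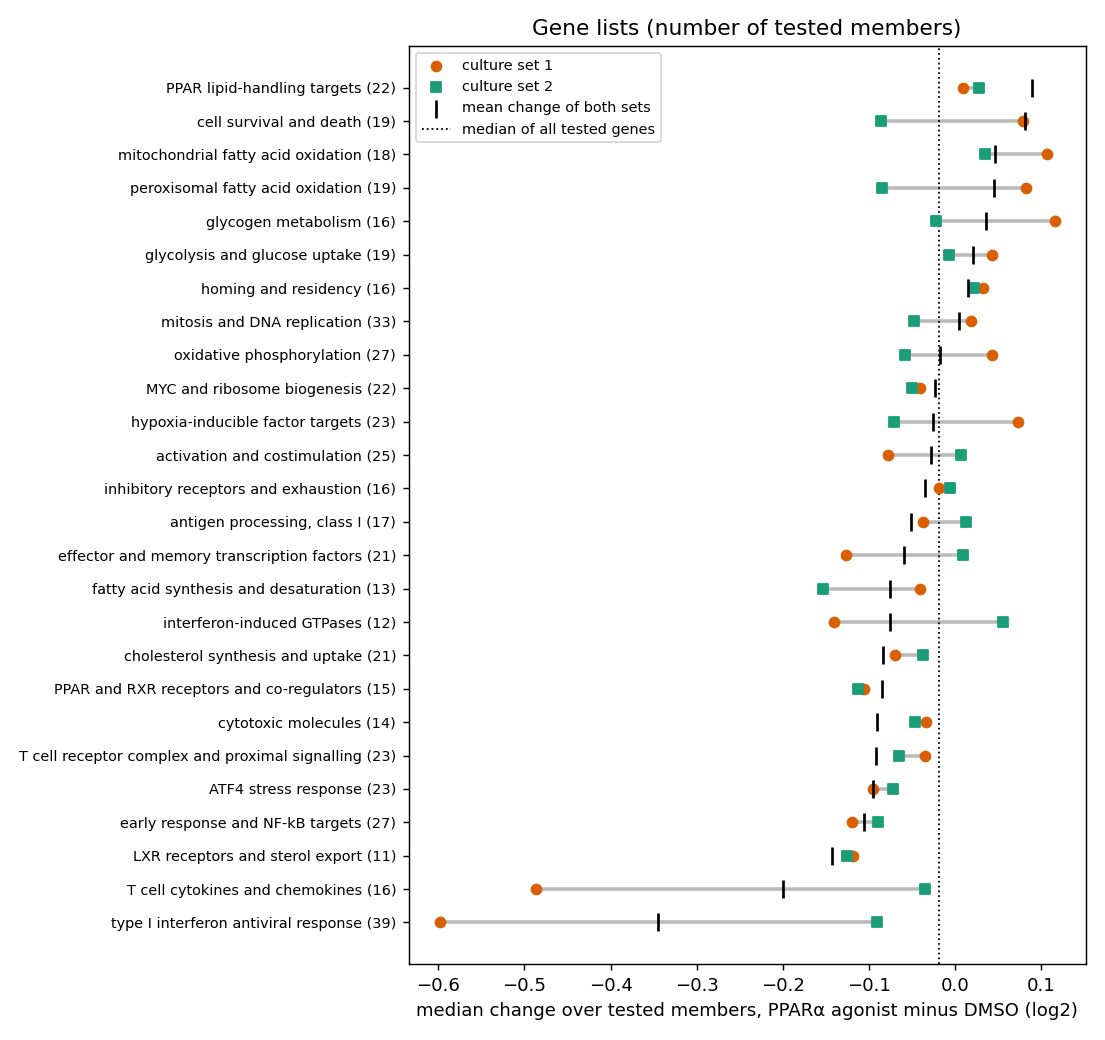
Median change with the PPARα agonist against DMSO (log2) over the tested members of each of the 26 pathway lists, in culture set 1 (orange circles), set 2 (green squares) and for the mean change of both (black ticks), with the median of all tested genes dotted. The interferon and cytokine lists lie farthest from 0 through set 1 (-0.60 and -0.49), while their set 2 medians are -0.09 and -0.04.

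Among markers of other cells, Cd68, a lysosomal protein of macrophages, stood at 7.80 and 7.83 with the PPARα agonist, against 8.56 and 8.14 with DMSO. Of the 13 macrophage and monocyte markers 3 were tested, and the mean level of all 13 was 4.41 and 4.56 with the agonist, against 4.46 and 4.60 with DMSO. Of the 13 neutrophil and mast cell markers 4 were tested, with mean levels over all 13 of 4.54 and 4.53 with the agonist, against 4.46 and 4.54 with DMSO. In that list Kit, the stem cell factor receptor, was lower at 6.95 and 7.10 with the agonist, against 7.42 and 7.44 with DMSO, and Mpo, the neutrophil peroxidase, was higher at 5.42 and 5.40 with the agonist, against 5.07 and 4.87 with DMSO. The part of these cells in the results above was not tested.

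The direct comparisons with the other agonists showed where the PPARα agonist stood among them. Against the PPARβ agonist limma called 2 genes (0.0158%), both lower with the PPARα agonist. Plin2 stood at 5.80 and 7.79 with the PPARα agonist, against 9.53 and 11.23 with the PPARβ agonist (log2 difference -3.59, SE 0.253, 95% interval -4.18 to -2.99, limma adjusted p = 0.00944 with the block and 0.9999 without it). Rhob, a small GTPase of endosomes and the actin cytoskeleton, stood at 5.02 and 5.49 with the PPARα agonist, against 7.99 and 7.79 with the PPARβ agonist (log2 difference -2.64, SE 0.182, 95% interval -3.06 to -2.21, limma adjusted p = 0.00944 with the block and 0.0197 without it). For neither gene did the ranges of these agonists overlap. With PPARα set 1, PPARβ set 1 or PPARβ set 2 left out 0 genes were called, with either PPARγ array left out 1 was, and with an intensity trend and robust variances 11 were.

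Other PPAR targets lay lower with the PPARα than with the PPARβ agonist without passing the threshold. The difference was -1.71 for Cpt1a (95% interval -2.28 to -1.14, limma adjusted p = 0.286) and -0.91 for Hilpda (95% interval -1.24 to -0.58, limma adjusted p = 0.377). Against the PPARγ agonist 0 genes were called (0.0%), the smallest limma adjusted p was 0.854, and 723 genes had an unadjusted p under 0.05. There the differences were 0.49 for Cpt1a (95% interval -0.09 to 1.06) and 0.38 for Hilpda (95% interval 0.05 to 0.71). A p above the threshold does not show that these agonists act alike, and since their doses were not given, matched doses cannot be assumed.

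All 3 agonists share the DMSO arrays, so a change against DMSO that depends on those arrays appears for each of them. Pygl differed from DMSO by 1.02 with the PPARα agonist, and stood at 7.70 and 9.34 with the PPARβ and at 8.13 and 8.84 with the PPARγ agonist, against 6.74 and 8.43 with DMSO. Acsl1 stood at 6.49 and 5.66 with the PPARβ and at 6.53 and 5.60 with the PPARγ agonist, close to the PPARα values given above. Of the 10 steadily higher and the 10 steadily lower genes, 9 each changed in the same direction with the PPARβ agonist, which the shared DMSO arrays favour. Mean changes with the PPARβ and PPARγ agonists were -0.78 and -0.80 for Id1 and 0.75 and 0.72 for Mkrn3. They were 0.96 and 0.64 for Sh3rf2, 0.42 and 0.68 for Snx16, and -0.52 and -0.69 for Ppcs. Mtln, in contrast, stood at 7.30 and 7.25 with the PPARβ and at 7.17 and 7.95 with the PPARγ agonist, and Synpr at 4.84 and 5.15, and at 5.12 and 4.96. For Synpr the PPARα arrays lay above all 6 other arrays, but its direct differences did not pass limma's threshold (0.95 against the PPARβ agonist, adjusted p = 0.647, and 0.91 against the PPARγ agonist, adjusted p = 0.854). This was not particular to Synpr. Among other named genes the PPARα arrays also lay above all 6 for Mtln, Ctsm, Snx16 and Hamp2, and below all 6 for Cisd2 and Tctn1. None of these genes was called in either direct comparison, and the ranking against DMSO favours such genes.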

How the data were processed

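RNA of 8 CD8+ T cell samples was measured on 1 array each. The authors deposited log2 RMA values per transcript cluster from Expression Console, per the labels' description. RMA corrects background, makes arrays alike and summarises probes, so a shift shared by most genes is removed. A linear intensity column, deposited beside it, equalled the log2 column to 1.5e-06 and was not tested. The annotation is on mm10, per the file headers. The number of arrays, not read depth, limits the precision.

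Of 22206 clusters, 21371 name 1 gene. Symbols were updated for 899 through a RefSeq table, and the cluster with the highest mean was kept per gene. Genes with a mean of at least 4.89, the 40th percentile, were tested in R 4.3.3 by limma 3.58.1 (functions lmFit, contrasts.fit and eBayes), two-sided, over all 8 arrays with culture set as a block and Benjamini-Hochberg adjustment over 12696 genes. The block follows the shared title prefix, and for every pair of groups, 6 in all, the differences between sets correlated across genes at 0.496 or more. The script was tested on simulated data.

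The gene lists, the rule for named genes and the tests were chosen with earlier results of these data known. The rule took the genes with an adjusted p under 0.05. It added 10 genes per direction by the smaller set change, 5 so ranked at or above the median level, 5 by unadjusted p, up to 4 list members past 0.3 in both sets, and 19 genes fixed by name. Of the genes so chosen, 3 are not reported here. It left out predicted genes and receptor families, which made up 78 of the 309 higher and 34 of the 299 lower genes. Lists got counts and medians, with no test.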

Additional observations from a re-analysis of the deposited data

Results flagged for a closer look

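The PPARα and PPARβ agonists differed by limma's direct test, with culture set as a block, for Plin2 and Rhob. The log2 difference, PPARα minus PPARβ agonist, was -3.59 for Plin2 and -2.64 for Rhob. Both were measured on 2 arrays per group, and 0 genes were called against the PPARγ agonist (723 at an unadjusted p under 0.05).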

How the results depend on the processing

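Against DMSO, 0 genes were called in every setting tried, with 225 to 983 at an unadjusted p under 0.05 and a smallest adjusted p of 0.310, with an intensity trend and robust variances. The fit with no replicate block gave 0 calls against DMSO and against the PPARγ agonist, and changed a call only against the PPARβ agonist, where it left 1 gene of 2. That count was 1 with the arrays of the compared groups alone, 1 with the filter at the 60th percentile, 11 with trend and robust variances, and 0 to 2 when 1 array was left out (0 without PPARα set 1, PPARβ set 1 or PPARβ set 2, and 1 without either PPARγ array). The median of PPAR lipid-handling targets was 0.12 with the filter at the 60th percentile, 0.11 after quantile normalization again, 0.12 after centring, and 0.0097 and 0.028 in the sets alone. That of mitochondrial oxidation was 0.11 in set 1 alone and 0.035 in set 2 alone. That of liver X receptors and sterol export was -0.13 with each other filter and with none, -0.11 after centring, and -0.12 and -0.13 in the sets alone. The correlation of the sets was 0.090 with the filter at the 60th percentile and 0.035 with none, and the share higher in both sets was 1.004 percent with that filter. Leaving out 1 array turned the direction of 7 named genes, whose changes ranged from -0.33 to 0.072 (Gzmb), -0.67 to 0.74 (Ifng), -0.20 to 0.11 (Il2ra), -0.19 to 0.49 (Plin2), -1.11 to 0.14 (Pltp), -0.054 to 0.19 (Ppara) and -0.44 to 0.57 (Rxra). The other named genes kept their direction in all settings that held them, and 36 of 63 passed the filter at the 60th percentile.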
